A study of Mus musculus with 4 samples.

Results

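The genes described here are 9 chemokines and 1 granulocyte growth factor that epithelial cells can secrete: Cxcl1, Cxcl2, Cxcl5, Csf3, Ccl20, Ccl2, Cxcl10, Cxcl12, Cxcl14 and Cxcl16. They are 10 of the 32285 genes in the deposited tables and were listed by name with values of these libraries already known, so their levels are given as a description, without a test. The cells came from mouse mammary organoids, which are epithelial structures grown in Matrigel from the glands of aged virgin female mice. Gene counts and antibody tags were read in single cells on the 10x Chromium platform in 4 libraries, 1 for each condition: untreated wild-type (WT control), hydroxyurea-exposed wild-type (WT HU), untreated Brca2mut/WT (Brca2mut/WT control) and hydroxyurea-exposed Brca2mut/WT (Brca2mut/WT HU).

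Brca2mut/WT organoids carried 1 truncated germline allele of Brca2, a gene of homologous recombination repair, in every cell, and the WT organoids came from littermates. Hydroxyurea (HU) depletes deoxyribonucleotides and stalls replication forks; the treated organoids had been exposed to it and washed. The study sequenced organoids at passage 0 and at passage 4, which differ in how often they had been exposed, and the labels do not say which passage or passages a library holds. All 4 libraries share the organoid medium, freezing, thawing, a short culture and enzymatic dissociation, and the cultures lack the vessels and circulating blood cells of the gland. The labels name 2 replicates for each condition, and the cells carry 4 antibody tags, but no key was given that ties a tag to an animal, a passage or a replicate. Each condition is therefore 1 library, and the cells of a tag are called a pool and are treated as an unlabelled share of that library.

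Chemokines are small secreted proteins that direct the movement of cells through G-protein-coupled receptors. Cxcl1, Cxcl2 and Cxcl5 share the ELR motif and attract neutrophils through Cxcr2, while Csf3 (G-CSF) drives the production and release of neutrophils through Csf3r. Ccl20 attracts Ccr6-bearing dendritic cells and lymphocytes, Ccl2 attracts Ccr2-bearing monocytes, and Cxcl10 attracts Cxcr3-bearing T cells and is induced by interferons. Cxcl12 is a ligand of Cxcr4 and Ackr3, Cxcl16 is made as a membrane-bound form that binds Cxcr6, and Cxcl14 is a homeostatic chemokine of epithelia. In the mammary gland, basal (myoepithelial) cells form the outer layer, and the inner luminal layer holds hormone receptor-negative (HR-) and hormone receptor-positive (HR+) cells.

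The sequences before the start of 4 members are shown because the 2 neutrophil chemokines and Cxcl10 carry motif matches there and Cxcl12 does not. They come from a set of promoter sequences at RefSeq starts on build GRCm38.p6 and are written 5′ to 3′ on the strand of the gene. The set at hand held 6 of the 10 members. The 250 bases before each RefSeq start were searched, and what is printed ends where the GENCODE gene begins, which shortens Cxcl1 and Cxcl2. Capitals mark matches to the NF-kB consensus or to an ISRE-like pattern (GAAA, then any 2 bases, then GAAA), as in interferon-stimulated response elements, in either orientation.
Cxcl1, chr5:90890995-90891240, plus strand: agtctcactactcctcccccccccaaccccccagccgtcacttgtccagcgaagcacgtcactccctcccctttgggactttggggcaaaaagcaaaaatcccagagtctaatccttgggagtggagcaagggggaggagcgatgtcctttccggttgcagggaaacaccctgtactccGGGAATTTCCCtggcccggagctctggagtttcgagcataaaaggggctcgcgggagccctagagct
Cxcl2, chr5:90903649-90903870, plus strand: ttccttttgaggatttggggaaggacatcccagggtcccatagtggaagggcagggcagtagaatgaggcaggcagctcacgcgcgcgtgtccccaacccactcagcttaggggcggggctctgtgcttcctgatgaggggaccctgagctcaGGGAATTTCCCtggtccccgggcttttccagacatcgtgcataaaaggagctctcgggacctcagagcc
Cxcl10, chr5:92348890-92349139, minus strand: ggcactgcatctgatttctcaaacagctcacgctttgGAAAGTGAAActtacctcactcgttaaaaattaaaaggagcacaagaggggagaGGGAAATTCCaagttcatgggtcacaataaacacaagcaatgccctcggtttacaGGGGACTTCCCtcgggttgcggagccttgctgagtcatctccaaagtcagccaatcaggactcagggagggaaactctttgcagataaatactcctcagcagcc
Cxcl12, chr6:117168285-117168534, plus strand: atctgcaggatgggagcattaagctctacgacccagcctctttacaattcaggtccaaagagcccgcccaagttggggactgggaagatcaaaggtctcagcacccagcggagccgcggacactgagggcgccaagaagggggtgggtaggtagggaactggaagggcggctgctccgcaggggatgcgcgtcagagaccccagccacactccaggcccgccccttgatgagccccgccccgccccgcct

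Cxcl1 and Cxcl2 held the same 11 letters, from -71 to -61 of the RefSeq start in Cxcl1 and from -97 to -87 in Cxcl2, read as overlapping NF-kB matches on both strands. Cxcl10 held NF-kB matches in 2 places, at -159 and at -104, and an ISRE-like match from -213 to -204. Ccl20 held 1 NF-kB match and Cxcl14 held 1 ISRE-like match. In all, 4 of the 6 members held an NF-kB match, against 7.25% of 32817 promoter windows searched over the same 250 bases, and 2 of 6 held an ISRE-like match, against 2.97%. A match describes letters in this window and nothing more.

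On build GRCm38 the protein-coding genes Cxcl5 (chr5:90759360-90761624), Cxcl1 (chr5:90891241-90893115) and Cxcl2 (chr5:90903871-90905938) lie on the plus strand of chromosome 5, with 129617 bases between the first pair and 10756 bases between the second. Cxcl10 (chr5:92346638-92348889) lies farther along the same chromosome on the minus strand. Cxcl12 is at chr6:117168535-117181367, Cxcl14 at chr13:56288643-56296551 and Ccl20 at chr1:83116766-83119167. Cxcl16 (chr11:70453983-70459984), Ccl2 (chr11:82035571-82037453) and Csf3 (chr11:98701263-98703629) lie far apart on chromosome 11. Counts were given per gene, so every value below covers the exons of the whole gene.

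The 4 libraries held 33268 cell barcodes and 1062504699 gene UMIs (unique molecular identifiers, each standing for 1 captured transcript), between 243430259 and 302135155 per library. After the study's limits on genes per cell and mitochondrial share, 17360 cells remained, 3293 to 5312 per library, with median depths of 24180 to 26893 UMIs, and 129 barcodes occurred in more than 1 library. The paper reports more cells after its quality control than there are barcodes here. The cells kept are therefore not the paper's set of cells. Cells with Krt14 at 500 CPM or more (counts per 1000000 gene UMIs) and Areg under 300 were called basal (2217 cells), those with Areg at 300 or more and Krt14 under 500 HR+ luminal (569 cells), and those with both under 300 HR- luminal (14008 cells). The 9 basal markers summed to 11486 to 16051 CPM in basal cells and 147 to 224 in HR- luminal cells, and the 8 HR+ markers to 8096 to 11772 in HR+ cells and 173 to 192 in HR- luminal cells, although both sums include the genes of the rule. The 9 HR- luminal markers summed to 26206 to 30162 CPM in HR- luminal cells, but also to 7620 to 9052 in HR+ and 3074 to 3766 in basal cells. Summed immune markers stayed at or under 4.98 CPM in every class, and endothelial markers at or under 2.13.

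With classes set per cell from Krt14 and Areg, the neutrophil chemokines Cxcl1, Cxcl2 and Cxcl5 were highest in basal cells, the outer epithelial layer. With lineages set on clusters, Cxcl1 and Cxcl5 no longer led there in every library. With no upper limit on genes per cell and under 10% mitochondrial UMIs, Cxcl1 and Cxcl2 did not. Cxcl1, the most abundant member in basal cells, stood at 141.5 CPM in basal cells of WT control, 107.1 in WT HU, 131.7 in Brca2mut/WT control and 106.4 in Brca2mut/WT HU. In HR- luminal cells it stood at 64.2, 42.3, 51.5 and 20.02 CPM in the same order, and in HR+ luminal cells at 72.5, 51.2, 51.8 and 48.7 CPM. The basal value was the highest of the 3 classes in each library, although without the cells of tag 2 in WT HU basal cells stood at 70.6 CPM and the 60 HR+ cells left at 82.0. The 95% counting intervals of basal and HR- luminal cells did not overlap in any of them (135.6 to 147.5 against 62.6 to 65.8 CPM in WT control). All intervals given here are exact Poisson or exact binomial intervals and cover counting error only. They leave out the spread between cells, pools and libraries, and no condition has a second library.

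Cxcl5 was also highest in basal cells. It reached 53.0, 20.7, 99.4 and 99.9 CPM in basal cells, whereas HR- luminal cells held 6.84, 9.69, 5.31 and 5.00 CPM, and HR+ cells 1.98 to 8.42. Both Brca2mut/WT libraries were above both WT libraries in basal cells, but single cells carried much of this level. A basal cell of Brca2mut/WT HU with 41152 UMIs held 292 Cxcl5, 357 Cxcl1 and 141 Csf3 UMIs together with 57 UMIs of Il1a, the gene of interleukin-1 alpha. Levels without the highest cell, here and in what follows, were computed after seeing the data. Without that cell, basal Cxcl5 in this library was 59.3 CPM, Cxcl1 56.6 CPM and Csf3 20.2 CPM, and basal cells still had the most Cxcl1 and Cxcl5 there. In Brca2mut/WT control the removal of the highest cell left basal Cxcl5 at 77.9 CPM, and both values were still above those of the WT libraries. Cxcl2, the close neighbour of Cxcl1 on chromosome 5, was scarce, with basal levels of 4.17, 0.992, 2.68 and 1.40 CPM and an HR- luminal maximum of 0.761. The highest basal cell of each library held 42 of 65, 7 of 19, 12 of 18 and 8 of 10 of the basal Cxcl2 UMIs. Without it the basal level was 1.48, 0.627, 0.897 and 0.282 CPM. In Brca2mut/WT HU that was under the level of HR- luminal (0.296) and HR+ cells (0.366) with no cell removed.

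Cxcl14 was also highest in basal cells, at 16.8, 25.2, 29.5 and 49.97 CPM, against 2.53 to 4.11 in HR- luminal cells. In HR+ cells it stood at 2.37, 1.05, 0 and 1.83 CPM. The 0 UMIs among 124 cells of Brca2mut/WT control allow a level of up to 0.990 CPM at a bound of 3 UMIs, and the 95% interval ends at 1.22. Cxcl12 was the exception to the basal pattern and had its highest level in HR- luminal cells, at 39.8, 38.9, 37.5 and 54.2 CPM, against 16.8, 16.1, 28.5 and 40.1 in basal and 1.32 to 9.48 in HR+ cells. The HR- and basal intervals did not overlap in any library (36.2 to 38.8 against 24.6 to 32.8 CPM in Brca2mut/WT control, where the gap was narrowest). This lead rests on part of the class: without HR- luminal cells that hold basal transcripts the median log2 ratio of basal to HR- cells was 0.15, and Cxcl12 no longer led in every library without them, without tag 1 of Brca2mut/WT control or with wider limits on cells. The genes of its high cells are described further on.

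Csf3 and Cxcl16 had no class that led in all 4 libraries. Csf3 was highest in HR+ luminal cells of 3 libraries, at 62.1 CPM in WT control, 41.7 in WT HU and 33.3 in Brca2mut/WT control, while in Brca2mut/WT HU basal cells stood at 39.9 and HR+ cells at 27.1 CPM. Without the single high basal cell described above, the basal level of that library was 20.2 CPM. In Brca2mut/WT control basal cells stood at 25.5 CPM, and the intervals overlapped (21.8 to 29.6 against 27.1 to 40.5 in HR+ cells). There 1 HR+ cell held 27 of 101 UMIs. Without it the HR+ level was 24.6 CPM, and without the highest basal cell the basal level was 21.7 CPM. HR- luminal cells had the lowest Csf3 in 3 libraries, at 16.8 CPM in WT control, 12.7 in Brca2mut/WT control and 7.31 in Brca2mut/WT HU. In WT HU the intervals of basal cells (19.7 CPM) and HR- luminal cells (20.6 CPM) overlapped.

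Cxcl16 was low in HR- luminal cells and higher in the other 2 classes: 40.0, 22.1, 35.2 and 26.8 CPM in basal, 32.2, 35.4, 30.7 and 24.2 in HR+ and 6.92, 6.45, 4.96 and 4.39 in HR- luminal cells. With each cell thinned to 5000 UMIs, a Cxcl16 UMI was found in 12.7%, 16.1%, 11.5% and 8.51% of HR+ cells and in 3.21%, 2.94%, 2.72% and 2.51% of HR- luminal cells, so the difference was also present at equal depth. Before thinning the shares were 30.9% to 39.8% and 8.04% to 10.9%. For Cxcl12 the thinned order of these 2 classes was the opposite, with a UMI in 9.87% to 11.8% of HR- luminal cells and in 0.885% to 4.43% of HR+ cells. Among basal cells the Cxcl12 shares were 6.3%, 6.1%, 7.8% and 14.6%. The last, in Brca2mut/WT HU, was above the 11.8% of HR- luminal cells of that library, with overlapping intervals. At the same depth Cxcl1 was found in 25.6%, 22.5%, 25.0% and 12.8% of basal cells and in 14.4%, 9.12%, 11.3% and 5.25% of HR- luminal cells.

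The levels of Cxcl10, Ccl20 and Ccl2 in HR+ cells came mostly from 1 cell each. Cxcl10 in HR+ cells stood at 80.1, 18.9, 0.990 and 42.1 CPM, and without the highest cell of each library at 3.33, 0.793, 0.333 and 4.81 CPM. Ccl20 reached 23.2 CPM in HR+ cells of WT control, where 75 of 98 UMIs lay in 1 cell, and was at 0 to 1.31 in the other 3 libraries. Ccl2 reached 53.1 CPM in HR+ cells of Brca2mut/WT HU, where 113 of 145 UMIs lay in 1 cell, against 0 to 1.19 in the other 3 libraries.

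In total 4 members (Cxcl1, Cxcl2, Cxcl5 and Cxcl14) were highest in basal cells in all 4 libraries, 1 (Cxcl12) in HR- luminal cells and 0 in HR+ cells. The basal lead of Cxcl2 in Brca2mut/WT HU rested on a single cell. Among the 9 members that reached 10 CPM in a class, which leaves out Cxcl2, the counts were 3, 1 and 0. Of the 9608 genes that reached this level, 17.0% were highest in basal cells, 18.0% in HR- luminal cells and 28.1% in HR+ cells under the same rule. The basal count was 2 when lineages were set on clusters (Cxcl2 and Cxcl14) and 2 with wider cell limits (Cxcl5 and Cxcl14), where the HR- luminal count was 0. Fibroblast markers, which were at 4 to 9 CPM in HR- luminal cells, summed to 703 to 1661 CPM in HR+ cells, nearly all from Dcn; their part in the HR+ levels of the members was not tested beyond the alternatives without such cells, which changed no count of members per class.

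**Figure D1:**
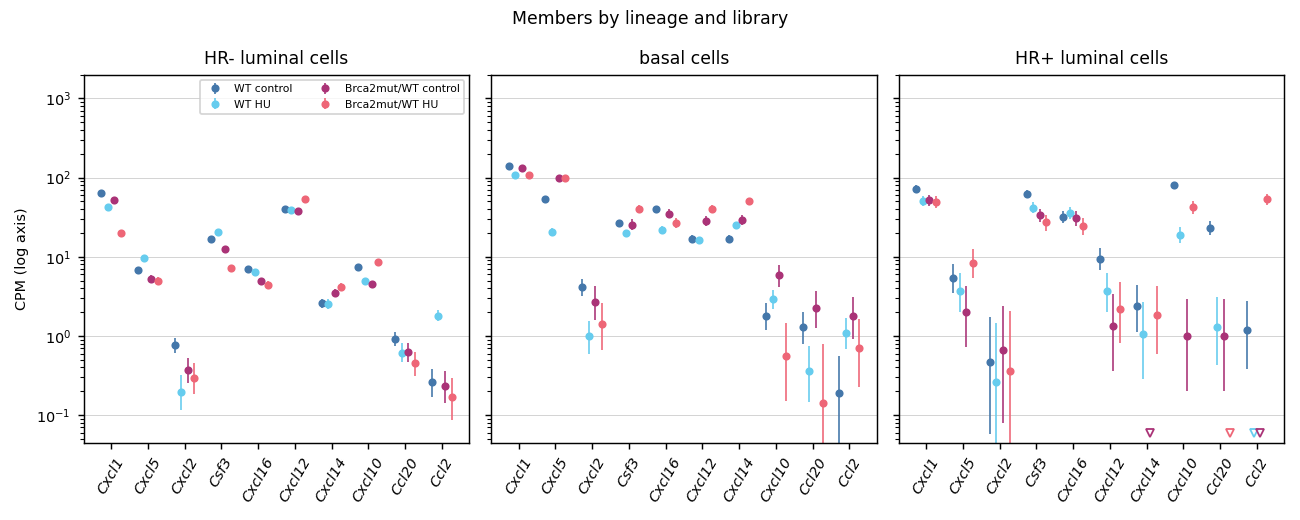
Level of each member (CPM, log axis) in HR- luminal, basal and HR+ luminal cells of the 4 libraries, 1 point per library and class. Bars are exact 95% Poisson intervals and open triangles mark 0 UMIs; Cxcl1, Cxcl5 and Cxcl14 stand higher in basal cells, Cxcl16 is low in HR- luminal cells only, and the scattered HR+ points of Cxcl10, Ccl20 and Ccl2 come from single cells.

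The design asks how HU exposure and Brca2 heterozygosity change expression, and HR- luminal cells, the largest class, give the most counts for it. Only 3 members (Cxcl1, Csf3 and Cxcl12) reached 10 CPM in a library of any contrast, and a difference was counted at 1.5-fold or more with a counting interval that leaves out equality. Cxcl1 was lower in each HU library than in its control. The ratio of HU to control was 0.660 in WT (95% counting interval 0.633 to 0.687, 3634 against 6665 UMIs) and 0.388 in Brca2mut/WT (0.366 to 0.412, 1422 against 4462 UMIs). Csf3 went in opposite directions, with a ratio of 1.23 (1.15 to 1.31) in WT and 0.578 (0.519 to 0.642) in Brca2mut/WT. Cxcl12 stood at 0.977 (0.933 to 1.02) in WT and 1.45 (1.38 to 1.52) in Brca2mut/WT, under the 1.5-fold limit in both.

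Between genotypes, the untreated libraries were close: Brca2mut/WT over WT gave 0.803 for Cxcl1, 0.755 for Csf3 and 0.940 for Cxcl12. In the HU libraries the same ratio was 0.473 (0.445 to 0.503) for Cxcl1, 0.354 (0.321 to 0.391) for Csf3 and 1.39 (1.33 to 1.46) for Cxcl12. The Brca2mut/WT HU library thus had the lowest Cxcl1 and Csf3 and the highest Cxcl12 of the 4 HR- luminal classes. Contrasts that share a library are not independent of each other.

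Of the 3 members, 1 was counted lower and 0 higher for HU in WT (Cxcl1), 2 lower and 0 higher for HU in Brca2mut/WT (Cxcl1 and Csf3), 0 in either direction between the untreated genotypes, and 2 lower and 0 higher between the HU genotypes (Cxcl1 and Csf3). Over all genes at 10 CPM the shares were 0.795% lower and 0.56% higher for HU in WT, 0.875% lower and 0.373% higher for HU in Brca2mut/WT, 0.351% lower and 0.636% higher between untreated genotypes, and 0.378% lower and 0.587% higher between HU genotypes. The median log2 ratio over all genes was 0.02 and 0.01 for HU in WT and in Brca2mut/WT, and 0.06 and 0.05 between the untreated and the HU genotypes.

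The value of Cxcl1 for HU in WT lay close to the 1.5-fold limit, and small changes of the cells took it across. The log2 ratio was -0.60 over all HR- luminal cells, -0.57 in cells with exactly 1 tag and -0.49 in cells with fewer than 2 UMIs of basal genes, and of these the first alone passed 1.5-fold. It was -0.51 and -0.34 without the cells of tag 2 or of tag 4 of WT control, and -0.34 and -0.23 without those of tag 1 or of tag 3 of WT HU. In Brca2mut/WT the log2 ratio of Cxcl1 for HU ran from -1.92 to -0.98 when any 1 pool was left out. Csf3 in WT was less settled in direction: with no upper limit on genes per cell and up to 10% mitochondrial UMIs its log2 ratio was -0.60 in place of 0.30, and leaving out single pools gave -0.05 to 0.64. For HU in Brca2mut/WT, Csf3 gave -0.48 under those wider limits and -0.58 without tag 4 of the control, both short of 1.5-fold.

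The remaining 7 members were under 10 CPM in HR- luminal cells of every library. Cxcl10 stood at 7.38, 4.97, 4.51 and 8.49 CPM, Cxcl5 at 6.84, 9.69, 5.31 and 5.00, and Cxcl16 at 6.92, 6.45, 4.96 and 4.39 CPM in the order used above. Ccl20 (0.451 to 0.915 CPM) and Cxcl2 (0.198 to 0.761) were near the limit of what these counts show. Ccl2 was at 1.81 CPM in WT HU and at 0.169 to 0.260 in the other 3 libraries. Markers of the basal lineage also differed within the HR- luminal class: Krt14 was at 88.1 and 73.2 CPM in WT control and WT HU and at 29.7 and 31.1 in the Brca2mut/WT libraries, and smooth muscle actin Acta2 was at 75.4 CPM in Brca2mut/WT HU against 47.9 in Brca2mut/WT control.

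**Figure D2:**
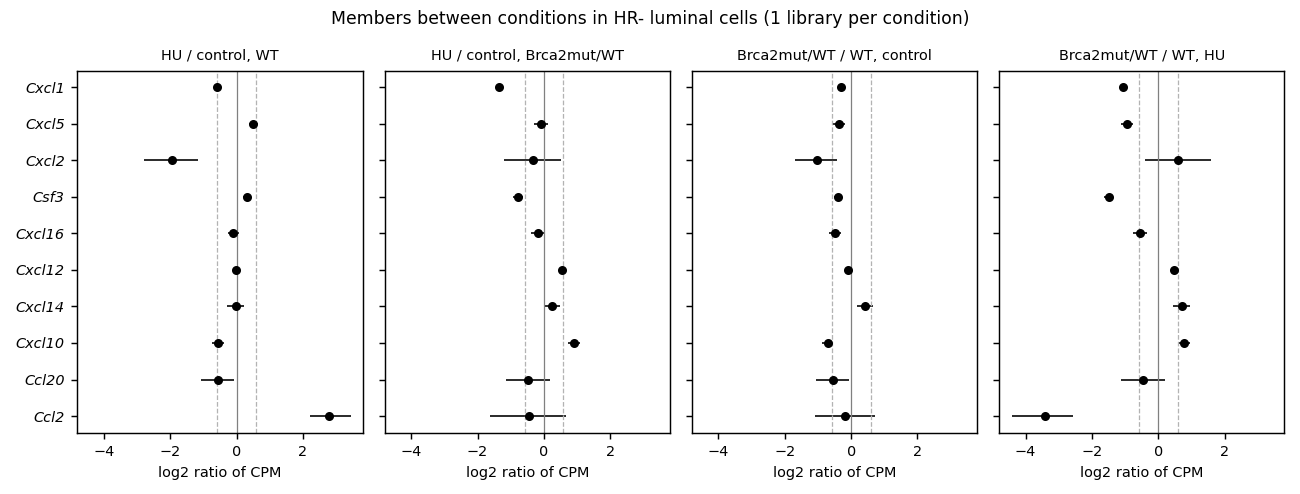
Log2 ratio of the CPM of each member between conditions in HR- luminal cells, 1 panel per contrast, 1 library per condition. Bars are 95% counting intervals and dashed lines mark 1.5-fold; Cxcl1 lies left of 0 in all 4 panels and Csf3 changes side between the WT and Brca2mut/WT panels of HU.

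The partners of these genes were described from lists. None of 12 chemokine and growth factor receptors reached 10 CPM in HR- luminal cells, the highest being Cxcr4 (1.41 CPM over the 4 libraries), Ackr3 (0.996) and Ackr4 (0.803). Cxcr2, the neutrophil receptor of Cxcl1, had 3 to 10 UMIs per library and Csf3r, the receptor of Csf3, had 0 or 1. Of 14 upstream cytokines 1 reached 10 CPM, the macrophage growth factor Csf1 (13.4 CPM), followed by Il18 (8.01) and Il33 (6.95).

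Genes of immediate early, NF-kB and interferon responses were expressed throughout, and those that were counted in a contrast are named although their values chose them. All 13 immediate early and heat shock genes, many of which dissociation is known to induce, reached 10 CPM, led by Fos (1074 CPM), Ier3 (805) and Jun (486). Their median log2 ratio was -0.30 for HU in WT and -0.20 for HU in Brca2mut/WT, with 1 counted lower (Atf3) in the first and 1 lower (Ier3) and 1 higher (Hspa1a) in the second. A single HR- luminal cell of Brca2mut/WT HU held 720 Hspa1a UMIs, against 8678 in this class over the 4 libraries. The ratio of Hspa1a without that cell was not computed. Of 15 NF-kB feedback and target genes 10 reached 10 CPM, led by Cebpb (879.6 CPM), Sod2 (308.5) and Cebpd (194.5), and 0 were counted in any of the 4 contrasts, with medians from -0.16 to -0.03.

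Of 7 interferon genes 6 reached 10 CPM, led by Isg15 (684 CPM), Irf7 (644) and Ifit3 (281), and 1 (Irf1) was counted lower for HU in each genotype. Their median log2 ratio of Brca2mut/WT to WT was 0.32 untreated and 0.24 in HU, with 0 counted, against 0.06 and 0.05 over all genes. Among 31 other chemokines in the tables only 4 reached 10 CPM in the HU contrasts, led by Cx3cl1 (21.6 CPM), Ccl5 (16.9) and Ccl27a (15.6). Ccl5, a T cell and monocyte attractant, was counted in 3 contrasts: lower for HU in WT (14.4 against 24.5 CPM), higher for HU in Brca2mut/WT (17.6 against 9.51) and lower in untreated Brca2mut/WT than in untreated WT (9.51 against 24.5). Single cells carried much of it: 1 cell of Brca2mut/WT HU held 689 of 1248 Ccl5 UMIs. Without the highest cell of each library Ccl5 stood at 17.7 CPM in WT control, 11.7 in WT HU, 6.53 in Brca2mut/WT control and 7.87 in Brca2mut/WT HU, so the difference for HU in Brca2mut/WT was then under 1.5-fold.

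The antibody tags split the HR- luminal cells with exactly 1 tag in each library into 4 pools of 116 to 1751 cells. Of all cells kept, 2014 had no tag and 209 had 2 or more, and these are in no pool. The HR- luminal cell of WT control with the most Cxcl10 UMIs (278) had no tag. Cxcl1 in the pools of tags 1 to 4 stood at 40.9, 125.3, 51.9 and 148.9 CPM in WT control, and at 21.7, 84.7, 23.1 and 102.8 in WT HU. In Brca2mut/WT control it stood at 31.0, 59.8, 55.8 and 69.3 CPM, and in Brca2mut/WT HU at 14.4, 59.0, 9.29 and 24.0. Tags 2 and 4 were each above tags 1 and 3 in every library. The highest pool was 3.64, 4.74, 2.23 and 6.35 times the lowest in the 4 libraries. Whole libraries ran from 20.02 to 64.2 CPM, so pools within each library but Brca2mut/WT control differed more than the libraries did.

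Cxcl12 had the reverse arrangement. It stood at 47.4, 17.1, 37.6 and 23.2 CPM in WT control, 50.2, 18.1, 47.4 and 14.4 in WT HU, 56.8, 10.9, 42.0 and 22.9 in Brca2mut/WT control and 57.8, 14.8, 65.8 and 38.2 in Brca2mut/WT HU. Cxcl16 followed Cxcl1, with 4.96, 15.5, 4.47 and 13.4 CPM in WT control and 2.53, 9.34, 2.99 and 14.6 in Brca2mut/WT HU. In Brca2mut/WT control the intervals of tags 1, 2 and 3 overlapped for Cxcl16 (4.10, 4.57 and 4.11 CPM) and tag 4 was higher (8.50). Csf3 kept the order in the WT libraries, with 54.1 and 42.0 CPM for tags 2 and 4 of WT control against 10.5 and 10.2 for tags 1 and 3, and 34.2 and 61.4 against 9.19 and 12.0 in WT HU. In the Brca2mut/WT libraries tag 2 was low for Csf3, at 6.22 and 6.06 CPM, and tag 4 was the highest pool, at 23.1 and 24.5 CPM. Cxcl14 stood apart in 1 pool, tag 4 of Brca2mut/WT HU with 116 cells, at 46.5 CPM against at most 6.54 in the other 15.

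A member was counted here once its highest pool reached 10 CPM, which favours members that differ between pools (Cxcl14 entered through 1 pool), so the counts are given as a description and nothing is read from them. Of the 7 members that entered, 2 (Cxcl1 and Cxcl16) had tags 2 and 4 above tags 1 and 3 in all 4 libraries, against 27.8% of 8786 genes, and 1 (Cxcl12) had the opposite, against 6.4%. The pools of tags 2 and 4 also had the greater median depths within each library, 26874 to 30324 UMIs per cell against 23769 to 28865 for tags 1 and 3; the part of depth was not tested. All 7 differed at least 2-fold between the highest and the lowest pool of every library, against 4.44% of genes, and 1 (Cxcl10) at least 4-fold, against 0.854%. Whether a tag marks the same source in different libraries is not given, so the arrangement is a description of 16 pools.

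**Figure D3:**
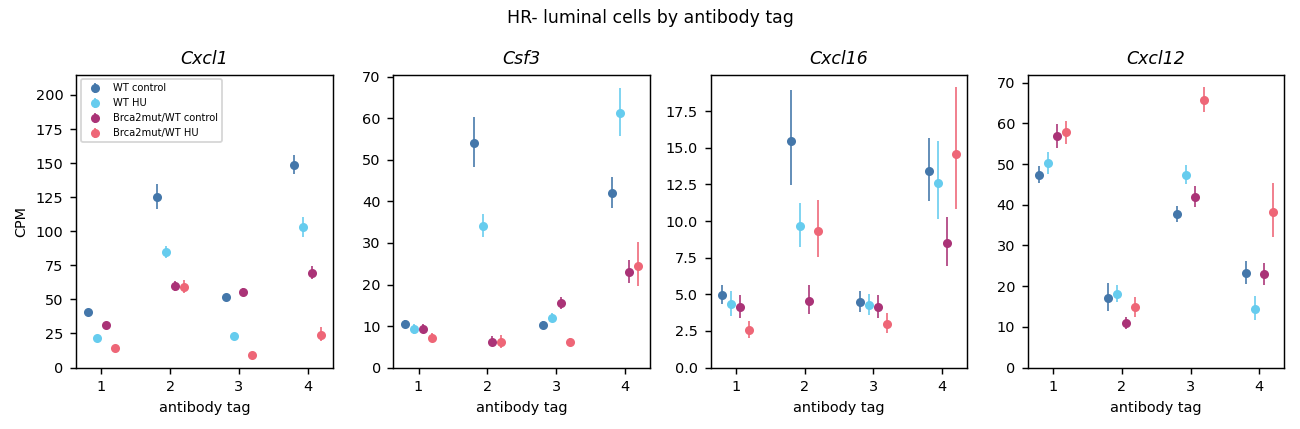
CPM of Cxcl1, Csf3, Cxcl16 and Cxcl12 in HR- luminal cells by antibody tag (x axis) and library (colours), with exact 95% Poisson intervals. Cxcl1 and Cxcl16 are higher under tags 2 and 4, Cxcl12 under tags 1 and 3, and Csf3 under tags 2 and 4 in the WT libraries only.

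Across the 16 pools the genes whose levels ran most like Cxcl12 were Col16a1 (Pearson r = 0.957), Mdk (0.954) and Gm35333 (0.948), among 8786 genes. Cxcl16 ran most like Baz1a (r = 0.967) and Cxcl1 most like Nudcd1 (0.887). The gene most like Cxcl5 was Csf3 itself (r = 0.847), while Csf3 ran most like Clu and Fxyd5 (both 0.910), Cxcl14 most like Igfbp3 (0.946) and Cxcl10 most like Cab39l (0.880). Between members, Cxcl1 and Csf3 gave r = 0.701 and Cxcl1 and Cxcl12 r = -0.787. The pools share libraries and differ in depth and cell number, so these values are given without a p. For Cxcl10, 371 of the 376 UMIs of tag 4 of WT HU lay in 1 cell. In tag 4 of Brca2mut/WT HU it was 511 of 546. Cxcl14 stood apart in 1 pool. The r of Cxcl10 and of Cxcl14 thus rests on few cells or on 1 pool, and no likeness is read from it.

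Within the HR- luminal class, Cxcl12 lay with transcripts of the basal program. The class was cut on Krt14, and Cxcl12 did not run with Krt14 in 1 direction: by Krt14 level of the cell, it stood at 50.9 CPM in cells of Brca2mut/WT HU without Krt14, 45.9 below 100 CPM, 154.1 from 100 to below 300, 169.7 from 300 to below 500, 99.8 from 500 to below 1000 and 22.1 in cells at 1000 CPM or more. In WT control the same series was 45.6, 33.1, 47.0, 63.8, 55.6 and 10.7 CPM. In each library the highest value lay between 100 and 1000 CPM of Krt14 and the lowest at 1000 or more. Cxcl5 stood at 55.6, 22.2, 116.5 and 128.7 CPM in that last bin, which was its highest bin in each library but WT HU (23.9 CPM from 300 to below 500). Cxcl14 had its highest value between 300 and 1000 CPM of Krt14, at 40.6, 46.3, 42.2 and 122.8 CPM.

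**Figure D4:**
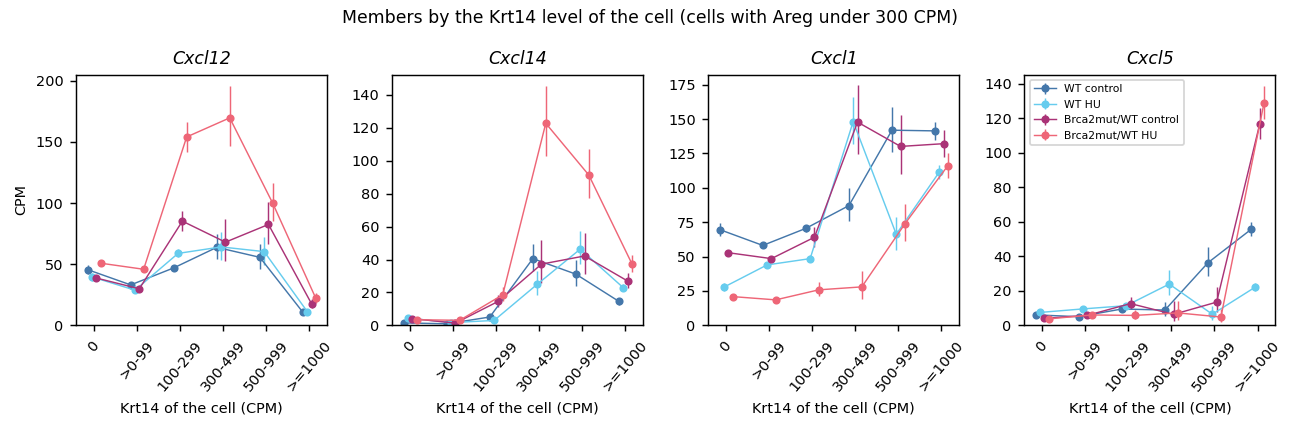
CPM of Cxcl12, Cxcl14, Cxcl1 and Cxcl5 in cells grouped by their Krt14 level (x axis, CPM of the cell), 1 colour per library, with exact 95% Poisson intervals. Cxcl12 is lowest in the cells with the most Krt14, whereas Cxcl5 is highest there in 3 of the 4 libraries.

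The 446 HR- luminal cells with 10 or more Cxcl12 UMIs held Acta2 at 704.9 CPM against 33.2 in the other HR- luminal cells, Myl9, the myosin light chain of smooth muscle, at 318.9 against 9.57, and the matrix protein gene Sparc at 1340 against 54.9. Trp63, the transcription factor of basal cells, stood at 70.8 CPM against 7.69, whereas the luminal keratin gene Krt8 stood at 338.9 against 1079 and Elf5, the HR- luminal transcription factor, at 19.0 against 112.6. The cells thus held less of the luminal and more of the basal genes than the rest of their class. Fibroblast markers summed to 8.83 CPM in these cells against 6.72 in the others, immune markers to 0.710 against 0.436 and endothelial markers to 0.102 against 0.922, so markers of stromal cells were near 0 in them.

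Cells with 2 or more UMIs summed over basal genes other than Krt14 (Krt5, Krt17, Trp63, Acta2 and Myh11) made up 1419, 972, 473 and 507 of the HR- luminal cells of the 4 libraries. Cxcl12 stood at 73.9, 83.7, 159.1 and 185.7 CPM in them and at 21.1, 19.9, 18.7 and 23.1 CPM in the others. Cxcl14 showed the same split, at 6.29, 7.21, 19.9 and 20.2 CPM against 0.538, 0.532, 0.933 and 0.296. Without these cells Cxcl12 no longer led in the HR- luminal class of every library, and the count of members highest there went from 1 to 0. The same count was 0 without tag 1 of Brca2mut/WT control. The 24 HR- luminal cells with 10 or more Cxcl14 UMIs held the smooth muscle genes Myh11 at 206.2 CPM against 0.490 and Cnn1 at 185.8 against 1.04.

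The neutrophil genes occurred together in cells. Among the 387 HR- luminal cells with 10 or more Cxcl1 UMIs, 37.2% had a Csf3 UMI, against 11.5% of the other HR- luminal cells, and 19.9% had a Cxcl5 UMI, against 5.40%. Of the 118 HR- luminal cells with 10 or more Csf3 UMIs, 70.3% had a Cxcl1 UMI, against 25.4% of the others. In basal cells 20 of 20 cells with 10 or more Csf3 UMIs had Cxcl1, against 40.6% of the others. The HR- luminal cells high in Cxcl1 had median depths of 29318 to 31414 UMIs in the 4 libraries, against 24718 to 27596 for the whole class, and the part of depth was not tested.

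The Cxcl1-high HR- luminal cells also held more of Hp (haptoglobin), at 115.7 against 11.8 CPM, and of the antileukoproteinase gene Slpi, at 719.3 against 122.6. The 20 Csf3-high basal cells summed to Cxcl1 at 1426 CPM against 106.7, Cxcl5 at 742.7 against 45.7, Cxcl2 at 97.4 against 1.23 and Il1a at 106.6 against 1.17. Single cells carried much of these sums, and only 8 of the 20 had a Cxcl5 UMI. The high basal cell of Brca2mut/WT HU held 357 Cxcl1, 292 Cxcl5 and 57 Il1a UMIs. A basal cell of WT control held 42 Cxcl2 UMIs. The 67 Cxcl5-high basal cells held Tslp, an epithelial cytokine, at 58.5 CPM against 1.24. Cxcl2 rarely reached 10 UMIs: 5 cells of the lineage classes did, and 4 of them also had 10 or more Cxcl1 UMIs. In the same classes, of 9 cells with 10 or more Ccl20 UMIs 5 also had 10 or more of Cxcl1, and of 6 such cells for Ccl2 3 did. Of 22 cells high in Cxcl10 1 did. Cells with 10 or more Cxcl1 UMIs numbered 387 of 14008 HR- luminal, 135 of 2217 basal and 23 of 569 HR+ cells. They are thus few in every class, and nothing is read from the 1 of 22.

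Cxcl10 came from single cells. The highest 1% of HR- luminal cells held 98.8% to 100% of its UMIs in each library, against 26.3% to 31.3% for Cxcl12, 31.4% to 50.7% for Cxcl1, 42.9% to 60.4% for Csf3 and a median of 8.06% to 8.33% over all genes. Of the 7 members with at least 200 UMIs in each library, 1 (Cxcl10) had over 90% of its UMIs in 1% of the cells in all 4, and of 10441 genes so did 2, Cxcl10 and Ccl5, which is 0.0192%. The highest cell held 278, 371, 238 and 511 Cxcl10 UMIs, and without it the level was 4.70, 0.652, 1.76 and 1.30 CPM. The order of the libraries thus differed with and without 1 cell each, and Brca2mut/WT HU went from the highest place to the third.

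**Figure D5:**
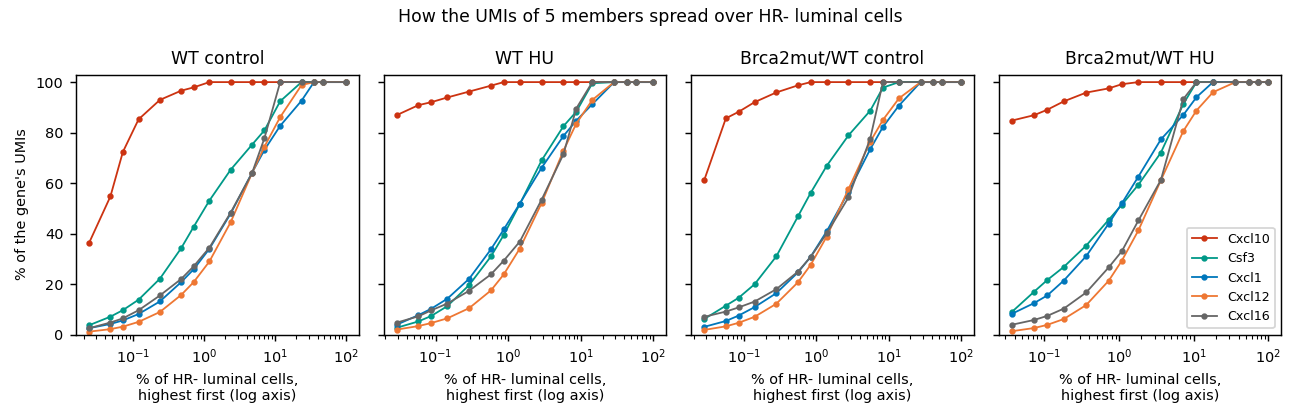
Share of a gene's UMIs (y axis, %) held by the highest cells (x axis, % of HR- luminal cells, log axis) for 5 members, 1 panel per library. The Cxcl10 line reaches 98.8% to 100% at 1% of the cells, while the Cxcl12 line is at 26.3% to 31.3% there.

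The 16 HR- luminal cells with 10 or more Cxcl10 UMIs held Ccl5 at 5106 CPM against 10.9 in the other HR- luminal cells, which is 35.2% of all Ccl5 UMIs of the class. Ifnb1, the gene of interferon beta, stood at 289.6 CPM against 0.0548, or 117 of 136 UMIs, 109 of them in 1 cell. Cd274 (PD-L1) and Gbp5, both known as interferon-induced, stood at 52.0 against 0.415 and 69.3 against 0.758 CPM. These cells were not all alike. The highest, in Brca2mut/WT HU, held 511 Cxcl10, 689 Ccl5 and 0 Ifnb1 UMIs, while the highest of WT HU held 371 Cxcl10, 237 Ccl5 and 109 Ifnb1 UMIs and 0 of Krt8, and an HR+ cell of WT control held 324 Cxcl10 UMIs and 0 of Ccl5, with 229 of the heat shock gene Hspa1a.

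Over all 17360 cells kept, 24 had 10 or more Cxcl10 UMIs and 6 of these had an Ifnb1 UMI, against 1 of the other 17336 cells. They were found in each of the 4 libraries (11, 4, 4 and 5 cells). Among the 22 in a lineage class, 18 had 10 or more UMIs of Isg15, 12 of Ifit3, 9 of the NF-kB inhibitor gene Nfkbia and 7 of Ccl5, and 0 had 10 or more of Csf3 or Cxcl5. The shares of other cells past this limit were not computed for the first 4 genes. Isg15 and Ifit3 were abundant in the whole HR- luminal class, with 237621 and 97470 UMIs over 14008 cells. Few cells of that class had 10 or more UMIs of Csf3 (118) or Cxcl5 (56), so nothing is read from the 0. By pool, Cxcl10 stood highest under tag 4 of WT HU (53.2 CPM), Brca2mut/WT control (22.0) and Brca2mut/WT HU (155.8) and under tag 2 of WT control (14.0), and was at 0.150 to 0.403 under tags 1 and 3 of WT HU. The pools are too small beside single cells of this size for an order to be read.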

How the data were processed

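Single-cell RNA-seq of mouse mammary organoids gave 4 libraries, 1 per condition. The deposited UMI counts per gene, cell and antibody tag are raw; per the study's methods the authors aligned reads to mm10 and counted them with Cell Ranger, whose version is 6.0.2 in the submitters' processing notes and 6.1.1 in the matrix headers. Antibody tag rows were kept out of gene totals. The study's limits on cells were applied (1000 to 6000 genes, mitochondrial share under 5%). Doublets were not called: cells with 2 or more tags numbered 209, the 109 cells with Krt14 at 500 CPM or more and Areg at 300 or more were left out of the lineages, and so were 457 cells between the limits. Lineages were set per cell from Krt14 and Areg rather than from clusters.

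UMIs were summed per library and class and divided by the gene UMIs of the class (CPM), with exact Poisson intervals for levels, exact conditional intervals for ratios and exact binomial intervals for shares, at 95% confidence; a count of 0 was bounded by 3 UMIs. Tags were called at a threshold between the low and the high mode of each tag, and a pool holds cells with exactly 1 tag. With 1 library per condition no test across samples was run and no p is given; the groups are the conditions in the labels. A contrast was counted at 1.5-fold or more with an interval that leaves out 1, a pool range at 4-fold or more. The counting rule was tested on simulated data for WT control and WT HU with 7486 genes: 50 of 50 genes were recovered at each of 2-, 4-, 0.5- and 0.25-fold, and 0 of 7286 unchanged genes were counted. The simulated counts were Poisson counts without spread between cells, pools or libraries. They check the working of the rule only and give no rate of false counts for the real libraries. The members, the gene lists and the rules were chosen with earlier results of these data known. The 10 members are always named; of each list the 3 genes with the highest HR- luminal level are named, genes counted in a contrast besides; for high cells and likeness the leading genes are named. Python 3.11.15, numpy 2.4.6, scipy 1.17.1, pandas 2.3.3, scanpy 1.11.5 and R 4.3.3 were used, with edgeR 4.0.16 (TMM) and DESeq2 1.42.0 (size factors) for scaling alternatives only. Alternatives were other cell limits, depth, tags, clusters, stromal cells, scaling, fold limits, the filter on low levels and leaving out each pool.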

Additional observations from a re-analysis of the deposited data

Results flagged for a closer look

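Some members differed in direction between HU and control in the 2 genotypes; none of these differences was tested, since each condition is 1 library. In HR- luminal cells the log2 ratio of HU to control was 0.30 in WT and -0.79 in Brca2mut/WT for Csf3, and -0.57 and 0.91 for Cxcl10, 36.3% to 86.9% of whose UMIs lay in 1 cell per library. Under the wider cell limits given above, HR- luminal Csf3 was lower in HU in both genotypes. In basal cells Csf3 gave -0.42 and 0.65, with 141 of the 284 UMIs of Brca2mut/WT HU in a single cell. Without that cell its basal Csf3 was 20.2 CPM, against 25.5 in its control, or 21.7 without the highest cell there. Basal Csf3 was then lower in HU in both genotypes. Basal Cxcl10 gave 0.70 and -3.37 on 4 to 56 UMIs per library. In HR+ luminal cells Cxcl10 gave -2.08 and 5.41, again from single cells.

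Signal also stood in the cells that were left out of the lineages. Cells high in both Krt14 and Areg (16 to 48 per library) held Cxcl1 at 164.6, 306.2, 630.1 and 130.9 CPM in WT control, WT HU, Brca2mut/WT control and Brca2mut/WT HU. Cells between the lineage limits (83 to 170 per library) held Cxcl12 at 63.8, 64.2, 68.1 and 169.7 CPM in the same order.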

How the results depend on the processing

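No paired analysis was possible because each condition is 1 library and the labels give replicate numbers only as names. Of 304 values of the main counts under an alternative, 265 stayed within 1.5 times and 39 moved. Of 1520 single values 1279 moved by less than their interval, 231 by more and 10 were set apart as reversed. That interval was the counting interval for contrasts and the range over the libraries for ratios between classes. The 10 do not cover every change of sign. For HU in WT in HR- luminal cells, leaving out pools took the log2 ratio of Csf3 from 0.30 to as low as -0.05. That of Cxcl10 went from -0.57 to as high as 0.12. The cause of a move was not tested in any case. With no upper gene limit and up to 10% mitochondrial UMIs, 0 members were highest in HR- luminal and 2 in basal cells, 2 were lower for HU in WT, 1 for HU in Brca2mut/WT and 2 between untreated genotypes, and the log2 ratio of Cxcl14 between HU genotypes was -0.063. In cells with exactly 1 tag, 0 were lower for HU in WT and Cxcl10 between untreated genotypes was at 0.007. With lineages set on clusters, 2 were highest in basal cells, 1 was higher for HU in Brca2mut/WT, 1 was lower between untreated genotypes and the HR+ over HR- ratio of Cxcl1 was -0.13. As a mean of per-cell CPM, Cxcl10 between HU genotypes was -0.72. At 2-fold, 0 members were lower for HU in WT, 1 for HU in Brca2mut/WT, and 7 had pools apart. With no filter on low levels, 1 was higher and 2 lower for HU in WT, 1 higher for HU in Brca2mut/WT, 2 lower between untreated and 2 higher and 4 lower between HU genotypes, while over all genes with a UMI the shares counted were 2.21% higher and 3.23% lower, 2.14% and 2.44%, 2.15% and 2.09%, and 2.37% and 1.47% in the order of these contrasts. Without HR- luminal cells with basal UMIs, an alternative chosen after seeing the data, 0 were highest in HR- luminal cells, 0 lower for HU in WT, and the log2 ratios were 0.15 for Cxcl12 (basal over HR-), 0.77 for Cxcl14 (HR+ over HR-) and -0.85 for Cxcl14 between HU genotypes.

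When each pool was left out in turn, members counted for HU in WT ranged from 0 to 1 higher and from 0 to 1 lower, for HU in Brca2mut/WT from 0 to 1 higher and from 1 to 2 lower, between untreated genotypes from 0 to 2 lower and between HU genotypes from 0 to 1 higher; members highest in HR- luminal cells ranged from 0 to 1, in HR+ cells from 0 to 1 and in basal cells from 3 (without tag 2 of WT HU) to 4. The log2 ratio of Cxcl10 ranged from -2.42 to 2.38 for HU in Brca2mut/WT and from -2.56 to 3.71 between HU genotypes, and that of Cxcl14 from -0.40 to 1.11 between HU genotypes, with the lowest value without tag 4 of Brca2mut/WT HU each time. Depth limits Cxcl2, Ccl20 and Ccl2, which stayed at or under 1.81 CPM in HR- luminal cells, and classes of 123 to 176 HR+ cells, where 1 cell sets a level.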
